A study of Mus musculus with 12 samples.

Results

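The circadian clock genes measured here were the activators Arntl (the gene of BMAL1) and Clock, the repressors Per1, Per2, Per3, Cry1 and Cry2, the nuclear receptors Nr1d1 and Nr1d2 (REV-ERBα and REV-ERBβ) and the output transcription factor Dbp. They were chosen by symbol, and all 10 were found among the 30176 genes of the array that had a probe set assigned to 1 symbol. Each of the 10 was read by 1 probe set. The cells were 3T3-L1, an established line of mouse preadipocytes that can be turned into fat cells in culture, and the 12 arrays (Affymetrix Mouse Transcriptome Array 1.0, total RNA) fell into 4 groups of 3. Paral1-siRNA cells at D9 and Ctrl-siRNA cells at D9 were differentiated adipocytes that had been trypsinized and reverse-transfected at day 7 with an siRNA against the long intergenic non-coding RNA Paral1 or with a non-targeting siRNA, each at 100 nM. Which of the study's siRNAs against Paral1 was used for the arrays is uncertain, since the labels name one and the paper describes another as the one selected. Paral1-siRNA cells at D2 and Ctrl-siRNA cells at D2 received the same siRNAs at day 0, together with the start of differentiation. The D2 cells had therefore spent their 2 days in medium with dexamethasone (a synthetic glucocorticoid), IBMX (a phosphodiesterase inhibitor that raises cAMP) and insulin, whereas the D9 cells had been without these agents since day 4. Each of the 6 experiments gave 1 Paral1-siRNA and 1 Ctrl-siRNA array, with experiments 1 to 3 at D2 and experiments 4 to 6 at D9. No source used here gives the hour of harvest, and each group holds a single day, so the arrays give a level of each gene and not a rhythm.

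The molecular clock is a feedback loop of transcription. BMAL1 and CLOCK bind E-box elements and switch on the Per and Cry genes, whose proteins return to the nucleus and block BMAL1 and CLOCK. In a second loop the REV-ERB proteins repress Arntl while ROR receptors activate it from the same elements, and DBP and its relatives act on D-box elements of further clock genes. Cells in culture keep this loop running, and glucocorticoids and cAMP, which set its phase, induce Per1 directly. In adipose tissue the clock is known to act on lipid storage and release, and REV-ERBα is known to be induced during adipocyte differentiation.

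The promoters are shown because these elements are how the clock genes act on each other. RefSeq promoter windows (GRCm38.p6) were matched for 9 of the 10 genes, 13 windows in all, and the 250 bases before each transcription start were searched on both strands. The elements searched were the E-box CACGTG, the E′-box CACGTT, the D-box TTATGTAA, the core AGGTCA of the element that REV-ERB and ROR receptors read, called the receptor core here, and the cAMP response element TGACGTCA. No 2 matches overlapped in these windows. Of the 5 genes that differed most between D9 and D2, the following 4 held at least 1 of them, and Dbp held none. In each sequence, written 5′ to 3′ on the strand of the gene, the capitals mark the match: an E-box and then the receptor core in reverse complement in Per1 (chr11:69098699-69098948, plus strand), 2 D-boxes in Per3 (chr4:151044666-151044915, minus strand), an E′-box in reverse complement in Nr1d1 (chr11:98775378-98775627, minus strand) and 1 receptor core in Nr1d2 (chr14:18239107-18239356, minus strand).
Per1: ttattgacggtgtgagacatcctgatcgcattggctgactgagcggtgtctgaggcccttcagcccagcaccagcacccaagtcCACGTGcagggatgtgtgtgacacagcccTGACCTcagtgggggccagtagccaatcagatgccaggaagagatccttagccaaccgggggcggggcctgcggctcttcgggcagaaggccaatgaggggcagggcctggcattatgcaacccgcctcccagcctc
Per3: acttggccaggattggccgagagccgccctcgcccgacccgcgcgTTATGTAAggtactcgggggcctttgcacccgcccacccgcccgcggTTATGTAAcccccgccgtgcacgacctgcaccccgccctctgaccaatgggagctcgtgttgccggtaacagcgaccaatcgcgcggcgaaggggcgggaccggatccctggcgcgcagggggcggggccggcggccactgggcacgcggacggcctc
Nr1d1: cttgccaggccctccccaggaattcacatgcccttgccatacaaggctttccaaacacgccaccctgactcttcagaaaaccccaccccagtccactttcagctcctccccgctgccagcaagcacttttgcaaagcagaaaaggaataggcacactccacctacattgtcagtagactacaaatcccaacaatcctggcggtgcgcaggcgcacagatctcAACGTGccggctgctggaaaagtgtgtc
Nr1d2: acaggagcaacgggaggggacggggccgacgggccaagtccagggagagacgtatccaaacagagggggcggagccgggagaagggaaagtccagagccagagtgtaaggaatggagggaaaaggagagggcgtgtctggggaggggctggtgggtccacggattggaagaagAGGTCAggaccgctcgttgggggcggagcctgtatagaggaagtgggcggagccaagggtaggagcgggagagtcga
The E-box of Per1 lay 166 to 161 bases before the start, and the D-boxes of Per3 lay at 205 to 198 and 158 to 151 bases before it. Cry1 held an E-box and an E′-box, Cry2 an E′-box, and 1 of the 3 Clock windows a receptor core. The second Per1 window and both Arntl windows held none of the 5 elements, and no window of the 9 genes held the cAMP response element. Among all 32851 promoter windows of the table, 6.02% held the E-box, 3.85% the E′-box, 0.819% the D-box, 14.0% the receptor core and 1.55% the cAMP response element. These matches describe the letters of the windows and do not show that a factor was bound. Only these spellings and these 250 bases were searched, so a window without a match does not show that the gene lacks the element.

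Values are given as log2 intensity, on which 1 unit is a 2-fold difference, and are compared only within a gene, because a probe set's level cannot be set against that of another. Arntl, Clock, Nr1d1 and Nr1d2 read above the brightest background probe set on all 12 arrays, Per1, Per2, Cry1, Cry2 and Dbp on 11 of the 12, and Per3 on the 6 D9 arrays only. The labels were checked with 8 adipocyte markers. Of these, 7 read above background on all arrays of each D9 group and 4 on all arrays of each D2 group. Their summed level on the log2 scale was 20.08 to 20.43 in Paral1-siRNA cells and 19.96 to 20.41 in Ctrl-siRNA cells at D9, and it was 9.63 to 14.71 in Paral1-siRNA cells and 10.61 to 16.32 in Ctrl-siRNA cells at D2. The 5 endothelial markers were above background on none of the arrays. Of 7 macrophage markers, 1 was above background on all arrays of each group except Paral1-siRNA cells at D9, where it was 0. The summed level of 3 preadipocyte markers overlapped between the days. It was 9.37 to 10.64 in Paral1-siRNA cells and 9.80 to 10.54 in Ctrl-siRNA cells at D9, against 9.99 to 11.29 and 9.86 to 11.55 at D2. Experiment 1 stood apart from the other D2 experiments: Fabp4, a fatty acid carrier of adipocytes, read 6.79 in its Paral1-siRNA array and 7.33 in its Ctrl-siRNA array, against at least 10.20 on the other 4 D2 arrays. Genes that differed from the mean of experiments 2 and 3 by more than 1 log2 unit made up 7.89% of all genes, and 2 of the 10 clock genes, Clock (-3.13 units) and Per1 (1.71 units), were among them.

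**Figure D1:**
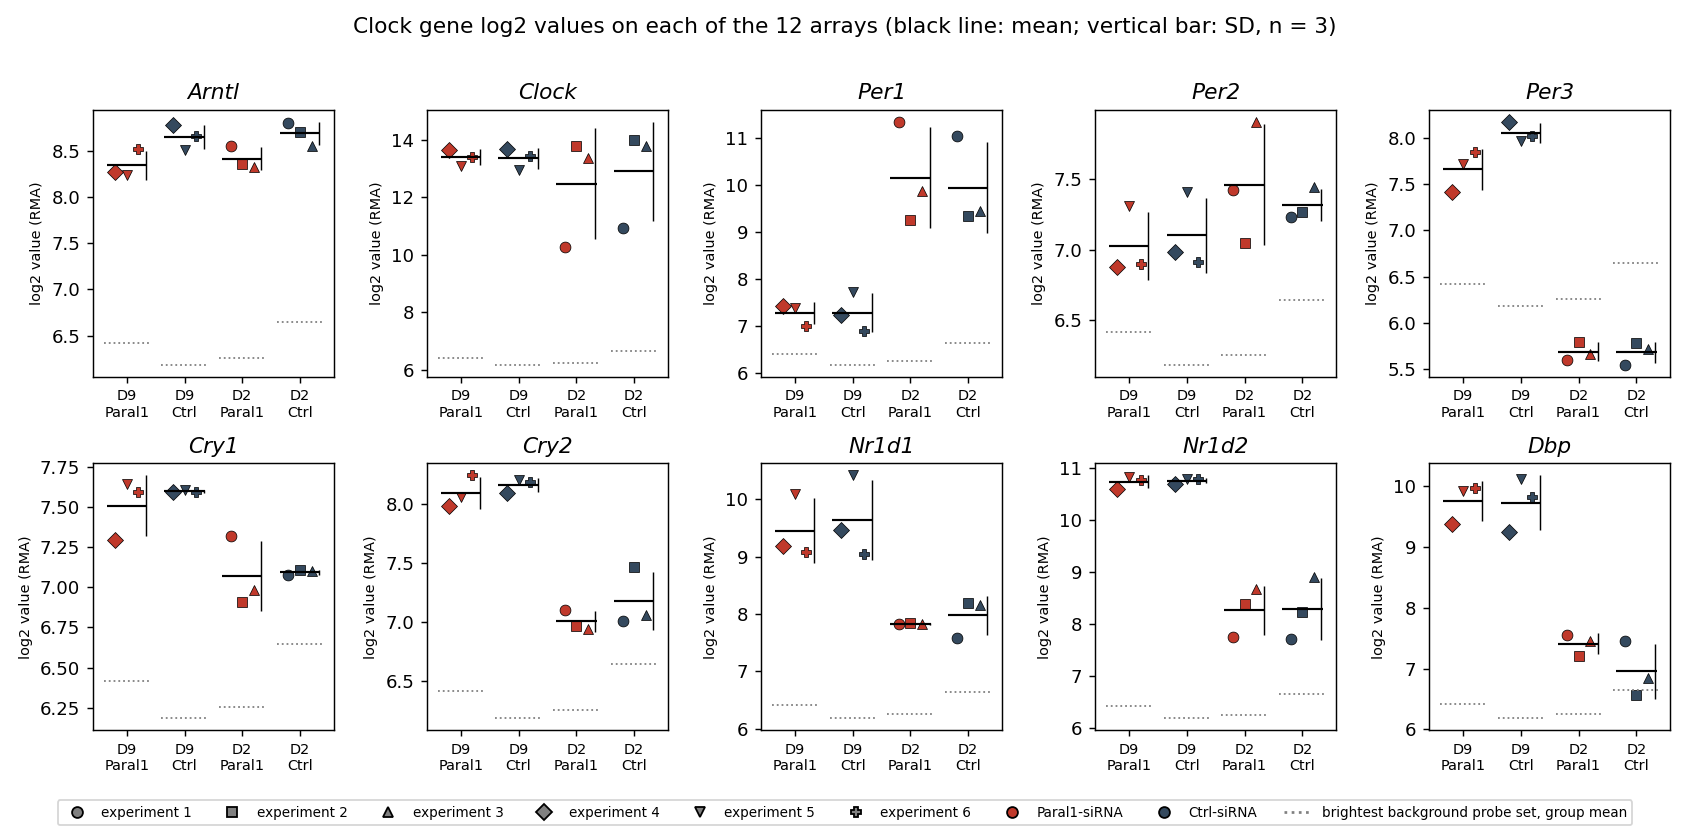
Log2 value (vertical axis) of the 10 clock genes on the 12 arrays, in Paral1-siRNA (red) and Ctrl-siRNA (blue) cells at D9 and at D2, with the symbol giving the experiment, the horizontal line the mean, the vertical bar the SD (n = 3) and the dotted line the mean of the brightest background probe set. Each panel has its own vertical scale, which does not start at 0. Per3, Nr1d1, Nr1d2 and Dbp sit higher at D9 and Per1 lower, and the D2 Per3 points lie below the dotted line.

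Most clock genes differed between adipocytes at D9 and cells at D2. Dbp, Nr1d2, Per3, Nr1d1, Cry2 and Cry1 were higher at D9 and Per1 was lower at D9, in Paral1-siRNA cells and in Ctrl-siRNA cells. These comparisons share no array, but they come from the same experiments and from 1 fit, so they are not independent. With limma and Benjamini-Hochberg adjustment over all genes, 7 of the 10 passed an adjusted p of 0.05 in Paral1-siRNA cells, where 39.7% of all genes passed, and 7 of the 10 passed in Ctrl-siRNA cells, where 41% of all genes passed. By direction, 6 of the 10 were higher, as were 14.5% of all genes in Paral1-siRNA cells and 14.9% in Ctrl-siRNA cells, and 1 of the 10 was lower, as were 25.2% and 26.1% of all genes. Without any overlap between the days, 5 members were higher and 1 was lower in Paral1-siRNA cells, where this held for 18.3% and 35.9% of all genes, and 6 were higher and 1 was lower in Ctrl-siRNA cells, where it held for 18.4% and 35.8%. The median difference of the 10 genes was 1.00 in Paral1-siRNA cells, against -0.16 over all genes, and 0.74 in Ctrl-siRNA cells, against -0.19 over all genes. The day of harvest, the experiments, the medium and the way of transfection all changed together between D9 and D2 and cannot be told apart. In RNA of whole cultures, a lower share of cells that express a gene and less of its RNA per cell cannot be told apart either. The adipocyte markers above differed between the days as well, and their part in these values was not tested.

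Dbp, the transcription factor of the D-box that is itself switched on by BMAL1 and CLOCK, had the largest difference among the genes that were higher in Ctrl-siRNA cells. In Paral1-siRNA cells it read 9.38, 9.91 and 9.97 at D9 against 7.54, 7.21 and 7.46 at D2. In Ctrl-siRNA cells it read 9.24, 10.11 and 9.83 at D9 against 7.45, 6.56 and 6.85 at D2. Every D9 array was therefore above every D2 array. The 6.56 of experiment 2 lay below the brightest background probe set of its array, at 6.84. The log2 difference was 2.35 (SE 0.27, adjusted p = 1.08e-04, limma), or 5.09-fold, in Paral1-siRNA cells and 2.77 (SE 0.27, adjusted p = 3.39e-05), or 6.84-fold, in Ctrl-siRNA cells.

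The REV-ERB genes, whose proteins repress Arntl, were both higher at D9. Nr1d2 read 10.60, 10.83 and 10.78 in Paral1-siRNA cells at D9 against 7.75, 8.38 and 8.66 at D2, and 10.69, 10.79 and 10.78 in Ctrl-siRNA cells at D9 against 7.72, 8.24 and 8.90 at D2. Its 6 D9 arrays spanned less than its 6 D2 arrays, of which the 2 of experiment 1 were the lowest. Nr1d2 differed by 2.47 log2 units in Paral1-siRNA cells (SE 0.28, adjusted p = 1.01e-04, limma) and 2.47 in Ctrl-siRNA cells (SE 0.28, adjusted p = 9.69e-05). Nr1d1 read 9.20, 10.10 and 9.08 in Paral1-siRNA cells at D9 against 7.82, 7.85 and 7.83 at D2, and 9.47, 10.42 and 9.05 in Ctrl-siRNA cells at D9 against 7.59, 8.20 and 8.15 at D2. Both siRNAs gave their highest Nr1d1 value in experiment 5, and no D9 value fell among the D2 values. Nr1d1 differed by 1.62 log2 units (SE 0.35, adjusted p = 0.00455, limma) in Paral1-siRNA cells and 1.66 (SE 0.35, adjusted p = 0.0039) in Ctrl-siRNA cells. The RefSeq annotation of Nr1d1 overlaps that of Thra, a thyroid hormone receptor gene, and whether the probe set reads both was not tested.

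The 3 Per genes, which encode the repressors of BMAL1 and CLOCK, each did something else. Per3 read 7.42, 7.71 and 7.85 in Paral1-siRNA cells at D9 against 5.60, 5.80 and 5.67 at D2, and 8.17, 7.96 and 8.01 in Ctrl-siRNA cells at D9 against 5.55, 5.78 and 5.72 at D2. Since no D2 array read above its brightest background probe set, only a bound can be given, taken against that probe set. Per3 was at least 2.65-fold higher at D9 in Paral1-siRNA cells and at least 2.64-fold higher in Ctrl-siRNA cells. The bounds themselves were not tested. The difference of the values as read, with D2 below background, had an adjusted p of 2.24e-06 in Paral1-siRNA cells and 6.73e-07 in Ctrl-siRNA cells (limma). Per1, which glucocorticoids and cAMP are known to induce, was on the opposite side. It read 7.43, 7.38 and 7.01 in Paral1-siRNA cells at D9 against 11.33, 9.25 and 9.86 at D2, and 7.23, 7.72 and 6.90 in Ctrl-siRNA cells at D9 against 11.04, 9.33 and 9.45 at D2. All D9 values lay below all D2 values, and the 2 arrays of experiment 1 were the highest. Per1 differed by -2.87 log2 units (SE 0.54, adjusted p = 0.0022, limma) in Paral1-siRNA cells and -2.66 (SE 0.54, adjusted p = 0.0033) in Ctrl-siRNA cells. Without experiment 1 it was -2.28 in Paral1-siRNA cells and -2.11 in Ctrl-siRNA cells, and it still passed the threshold. Per2 read 6.87, 7.31 and 6.90 in Paral1-siRNA cells at D9 against 7.42, 7.05 and 7.90 at D2, and 6.98, 7.41 and 6.91 in Ctrl-siRNA cells at D9 against 7.23, 7.27 and 7.44 at D2. The D9 and D2 values of Per2 overlapped, and its log2 difference of -0.43 (95% interval -0.91 to 0.05) in Paral1-siRNA cells and -0.21 (95% interval -0.70 to 0.27) in Ctrl-siRNA cells did not pass the threshold (adjusted p = 0.14 and 0.453, limma).

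The Cry genes encode the partners of the PER proteins. Cry2 read 7.98, 8.06 and 8.24 in Paral1-siRNA cells at D9 against 7.11, 6.97 and 6.94 at D2, and 8.09, 8.20 and 8.19 in Ctrl-siRNA cells at D9 against 7.01, 7.46 and 7.06 at D2. The days did not overlap, and the log2 difference was 1.09 (SE 0.13, adjusted p = 1.45e-04, limma) in Paral1-siRNA cells and 0.98 (SE 0.13, adjusted p = 2.71e-04) in Ctrl-siRNA cells. Cry1 read 7.29, 7.64 and 7.59 in Paral1-siRNA cells at D9 against 7.32, 6.91 and 6.99 at D2, and 7.59, 7.61 and 7.60 in Ctrl-siRNA cells at D9 against 7.08, 7.11 and 7.10 at D2. The days were apart in Ctrl-siRNA cells and overlapped in Paral1-siRNA cells, where experiment 1 was the highest of the D2 arrays and experiment 4 the lowest of the D9 arrays. Its log2 difference was 0.44 (SE 0.13, adjusted p = 0.0203, limma) in Paral1-siRNA cells, where leaving out experiment 2, 3, 5 or 6 ended the call (differences of 0.36 to 0.40), and 0.50 (SE 0.13, adjusted p = 0.0102) in Ctrl-siRNA cells.

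The activators did not pass the threshold. Arntl read 8.26, 8.24 and 8.52 in Paral1-siRNA cells at D9 against 8.55, 8.35 and 8.33 at D2, and 8.77, 8.51 and 8.66 in Ctrl-siRNA cells at D9 against 8.80, 8.70 and 8.55 at D2. Its log2 difference was -0.07 (95% interval -0.34 to 0.20) in Paral1-siRNA cells and -0.04 (95% interval -0.31 to 0.23) in Ctrl-siRNA cells. These intervals hold for the main processing only. Under the alternatives the difference ran from -0.29 to 0.06 in Paral1-siRNA cells and from -0.30 to 0.09 in Ctrl-siRNA cells. Clock read 13.66, 13.10 and 13.41 in Paral1-siRNA cells at D9 against 10.28, 13.80 and 13.36 at D2, and 13.66, 12.94 and 13.45 in Ctrl-siRNA cells at D9 against 10.92, 13.99 and 13.79 at D2. The 2 arrays of experiment 1 lay apart from all others, and the log2 difference of 0.91 (95% interval -1.16 to 2.99) in Paral1-siRNA cells and 0.45 (95% interval -1.63 to 2.52) in Ctrl-siRNA cells took in values of either sign. Without experiment 1 it was -0.19 in Paral1-siRNA cells and -0.54 in Ctrl-siRNA cells and did not pass either (adjusted p = 0.562 and 0.11, limma). The RefSeq annotation of Clock overlaps the entries Ube2n-ps1 and Gm7467, and whether the probe set also reads these was not tested. Entries on the opposite strand overlap Dbp (Sphk2), Per3 (Uts2), Cry2 (D930015M05Rik) and Arntl (Gm33721), and Per2 overlaps Gm35591. Whether the probe sets of these members read them was not tested either.

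**Figure D2:**
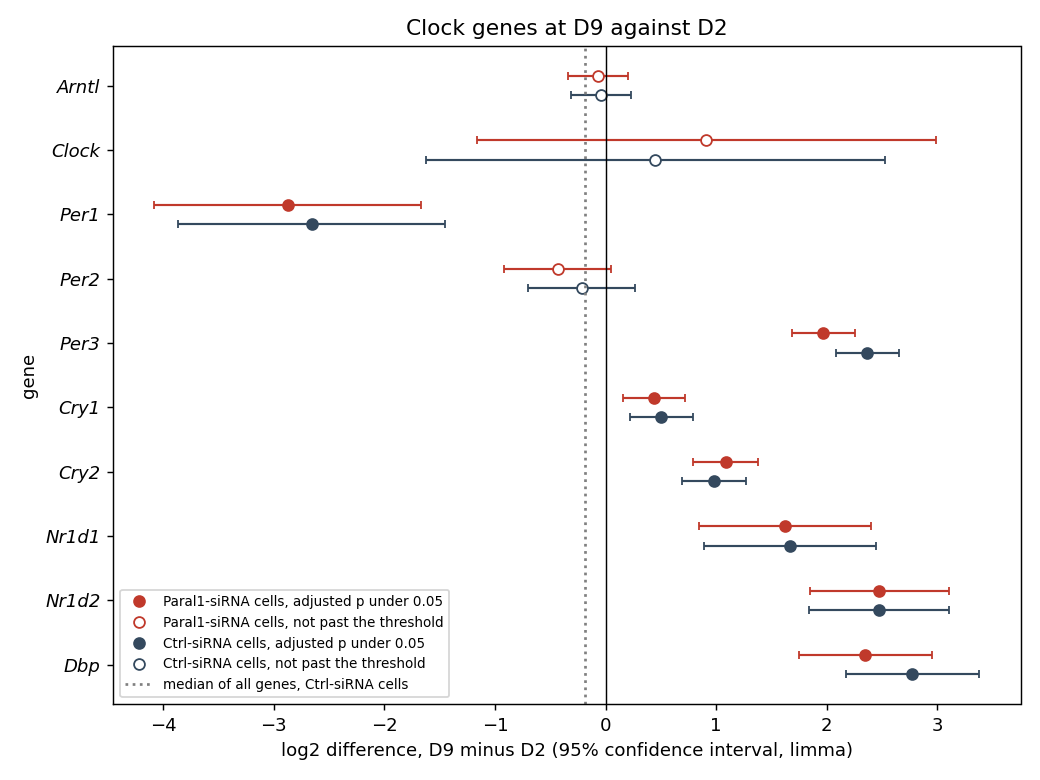
Log2 difference of D9 minus D2 (horizontal axis, with the 95% confidence interval of limma) for the 10 clock genes in Paral1-siRNA cells (red) and Ctrl-siRNA cells (blue); filled points had an adjusted p under 0.05, and the dotted line is the median of all genes in Ctrl-siRNA cells. For Per3 the D2 arrays are below background, so its points rest on values that give only a bound. The 7 filled genes are the same for both siRNAs.

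The siRNA against Paral1 was compared with the control siRNA within each day, which asks whether the clock genes moved when Paral1 was targeted during the first 2 days of differentiation or in formed adipocytes. None of the 10 genes passed the threshold at D9 or at D2 (limma, 3 against 3 arrays), where 0% of all genes passed at each day. At an unadjusted p under 0.05 there were 2 members at D9, against 2.57% of all genes, and 0 members at D2, against 1.52% of all genes. The largest differences by size were -0.39 for Per3 at D9 and 0.45 for Dbp at D2, and every member stayed under a 1.5-fold difference of the means at both days. With the experiment as a block, the counts at an unadjusted p under 0.05 were 2 members at D9, against 6.87% of all genes, and 3 members at D2, Arntl, Clock and Dbp, against 11.6% of all genes, and again none passed after adjustment. Beside these values, the summed level of the 8 adipocyte markers at D2 was lower with Paral1-siRNA in each experiment, at 9.63, 14.71 and 11.53 in Paral1-siRNA cells against 10.61, 16.32 and 15.68 in Ctrl-siRNA cells, and its part in the D2 differences was not tested.

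Arntl was lower with Paral1-siRNA in 6 of 6 experiments, which held for 3.77% of all genes. It read 8.26, 8.24 and 8.52 in Paral1-siRNA cells at D9 against 8.77, 8.51 and 8.66 in Ctrl-siRNA cells, and 8.55, 8.35 and 8.33 in Paral1-siRNA cells at D2 against 8.80, 8.70 and 8.55 in Ctrl-siRNA cells. The groups overlapped at D9. At D2 they were apart by the width of the rounding, with the highest Paral1-siRNA array and the lowest Ctrl-siRNA array both at 8.55, and 2.12% of all genes were apart in this direction at D2. The log2 difference was -0.31 (SE 0.12, unadjusted p = 0.0428, adjusted p = 1.0, limma) at D9 and -0.27 (SE 0.13, unadjusted p = 0.0753, adjusted p = 1.0) at D2. In a fit over the 6 experiments of both days, chosen after these values had been seen, Arntl differed by -0.29 (SE 0.06, unadjusted p = 0.00151, adjusted p = 0.246, limma). A two-sided exact permutation test that flips the sign of each experiment gave p = 0.03125, the smallest that 6 experiments allow. Since all 6 differences had the same sign, this test must return that value, so it adds nothing to the 6 of 6. Arntl was the only member with an unadjusted p under 0.05 in that fit, against 11.8% of all genes. It did not pass after adjustment, as 0.00331% of all genes did.

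Per3 at D9 was the other member with a low unadjusted p, and Arntl, Per2 and Per3 were the 3 members lower with Paral1-siRNA in 3 of 3 experiments at D9, as were 13% of all genes. It read 7.42, 7.71 and 7.85 in Paral1-siRNA cells against 8.17, 7.96 and 8.01 in Ctrl-siRNA cells, and the groups did not overlap, as was the case in this direction for 2.50% of all genes. The log2 difference was -0.39 (SE 0.14, unadjusted p = 0.0268, adjusted p = 1.0, limma), and the two-sided exact permutation test gave p = 0.1, the smallest that 3 against 3 arrays allow. Experiment 4 carried much of it, since the difference was -0.75 in that experiment, -0.25 in experiment 5 and -0.17 in experiment 6, and it was -0.21 without experiment 4. At D2 the level was below background with both siRNAs, so no siRNA difference of Per3 can be read there. In the test of the siRNA difference at D9 minus that at D2, 0 members passed after adjustment, against 0% of all genes (limma). At an unadjusted p under 0.05 there were again 0 members, against 1.08% of all genes. With the experiment as a block there were 2, Clock and Per3, against 7.29% of all genes, and the Per3 value rests on D2 levels below background.

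Dbp at D2 read 7.54, 7.21 and 7.46 in Paral1-siRNA cells against 7.45, 6.56 and 6.85 in Ctrl-siRNA cells. It was higher with Paral1-siRNA in 3 of 3 experiments, as were 18.8% of all genes, but the groups overlapped. The 0.10 of experiment 1 was small beside the 0.65 of experiment 2 and the 0.61 of experiment 3. The 0.65 rests on a Ctrl-siRNA value of 6.56, below the background of 6.84 on that array. The log2 difference was 0.45 at D2 (95% interval -0.14 to 1.04) and 0.03 at D9 (95% interval -0.61 to 0.66). These intervals take no account of the pairing and hold the spread between experiments (SE 0.24 and 0.26). With the experiment as a block the SE was 0.14 at D2 (unadjusted p = 0.0207, adjusted p = 0.378, limma). At D9 it was 0.11 (unadjusted p = 0.817, adjusted p = 0.963, limma). Clock was lower with Paral1-siRNA in 3 of 3 experiments at D2, with differences of -0.65, -0.19 and -0.43, as were 14.6% of all genes, and its values at D9 differed by -0.003 in experiment 4, 0.16 in experiment 5 and -0.04 in experiment 6. The remaining members had siRNA differences of -0.19 to -0.01 at D9 and of -0.17 to 0.21 at D2.

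**Figure D3:**
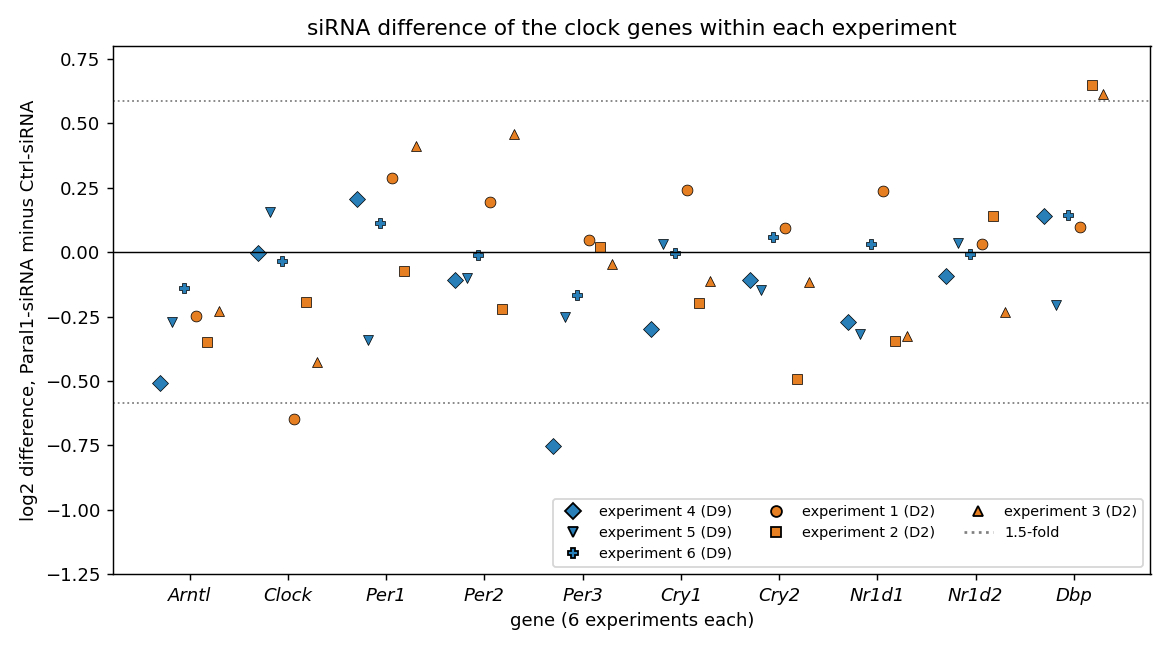
Log2 difference of Paral1-siRNA minus Ctrl-siRNA (vertical axis) for the 10 clock genes within each of the 6 experiments, D9 in blue and D2 in orange; the dotted lines mark 1.5-fold. The 6 Arntl points all lie below 0, and the points of the other genes spread to both sides of it, with Per3 of experiment 4 the lowest of all at -0.75.

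Of 23 further clock genes listed, 20 had a probe set with 1 symbol. In Paral1-siRNA cells 9 of them were higher at D9, 2 were lower and 9 did not pass, where 14.5% of all genes were higher and 25.2% lower. In Ctrl-siRNA cells 11 were higher, 3 were lower and 6 did not pass, where 14.9% of all genes were higher and 26.1% lower. Of the called genes, Npas2, Hlf and Fbxl21 in both comparisons and Rorb in Ctrl-siRNA cells read below background on all 12 arrays, so no fold is given for them. Rora, the ROR receptor that activates Arntl where REV-ERB represses it, was higher at D9 (adjusted p = 9.66e-04 in Paral1-siRNA cells and 0.00143 in Ctrl-siRNA cells, limma), on the same side as Nr1d1 and Nr1d2. It read 7.71, 8.83 and 9.15 in Paral1-siRNA cells at D9 against 4.49, 5.65 and 5.95 at D2, and 8.96, 9.06 and 9.64 in Ctrl-siRNA cells at D9 against 5.35, 6.17 and 7.19 at D2. Only 1 of the 3 D2 arrays of each siRNA was above background, so the size of the Rora difference is uncertain. Nampt, an enzyme of NAD salvage that is also a clock output and an adipokine, was 3.36 and 3.40 higher. Noct (nocturnin), a clock-controlled gene of lipid metabolism, was 1.94 and 1.72 higher, with 2 of the 3 D2 arrays above background in each case. Among the D-box factors, Tef, which acts like DBP, was 1.31 higher in Paral1-siRNA cells, where 2 of the 3 D2 arrays were above background, and at least 1.90-fold higher in Ctrl-siRNA cells, where its D2 arrays were below background. Nfil3, which represses from the same element, was lower (adjusted p = 0.00507 and 0.00761, limma), but at D9 it was above background on only 1 of 3 Paral1-siRNA arrays and 2 of 3 Ctrl-siRNA arrays, so the size of its difference is uncertain too. Bhlhe41, a repressor of the E-box, was at least 1.28-fold higher in Paral1-siRNA cells and at least 1.10-fold higher in Ctrl-siRNA cells. The bound in Paral1-siRNA cells is uncertain, since only 2 of the 3 D9 arrays read Bhlhe41 above background. Wee1, a clock-controlled kinase of the cell cycle, was lower at -0.87 and -1.01. The summed level of dividing-cell markers was also lower at D9, at 8.41 to 9.91 in Paral1-siRNA cells and 8.30 to 9.33 in Ctrl-siRNA cells, against 11.55 to 13.71 and 11.57 to 14.09 at D2, and its part in the Wee1 values was not tested. Of 7 genes for kinases and turnover of PER and CRY, Fbxl21 alone passed in Paral1-siRNA cells, and Btrc, which encodes a ubiquitin ligase subunit that acts on PER proteins, passed beside it in Ctrl-siRNA cells at 0.43. None of the 20 genes passed for the siRNA at either day. The fit over the 6 experiments gave Rora -0.76 (unadjusted p = 5.25e-04, adjusted p = 0.214, limma), beside -0.29 for Arntl. In that fit 11.8% of all genes had an unadjusted p under 0.05. The Rora value rests in part on D2 arrays, of which only 1 of 3 per siRNA was above background, so its size is uncertain. Bhlhe40, another E-box repressor, stood at -0.47 (unadjusted p = 7.50e-04, adjusted p = 0.227). Usp2 stood at -0.18 (adjusted p = 0.321), with most arrays below background. Noct stood at -0.40 (unadjusted p = 0.0118, adjusted p = 0.313, limma), but in experiment 5 it was higher with Paral1-siRNA, at 8.13 against 7.94. Rora, Bhlhe40 and Usp2 were lower with Paral1-siRNA in every experiment, as were Arntl and 3.77% of all genes. No gene of the list was higher in every experiment.

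Targets of glucocorticoids and cAMP were listed because the D2 cells had been in dexamethasone and IBMX. Of 9 measured, 6 were lower at D9, 1 was higher and 2 did not pass, in Paral1-siRNA cells and in Ctrl-siRNA cells alike, beside the 25.2% and 26.1% of all genes that were lower. The 1 that was higher was Crem, a cAMP-responsive transcription factor, by 0.52 in Paral1-siRNA cells, with 2 of 3 arrays above background at each day, and at least 1.23-fold in Ctrl-siRNA cells, where its D2 arrays were below background. Klf9 and Sgk1 did not pass, though with the experiment as a random block Sgk1, a glucocorticoid-induced kinase, was lower in Paral1-siRNA cells (-0.78, adjusted p = 0.0237 with the block and 0.0549 without it). Dusp1, a phosphatase of MAP kinases, was lower by the most, at -4.62 in Paral1-siRNA cells and -4.20 in Ctrl-siRNA cells. Fkbp5, a chaperone of the glucocorticoid receptor, stood at -3.44 and -3.71, with 2 of 3 Paral1-siRNA arrays above background at D9. Nr4a1, an immediate early nuclear receptor that cAMP induces, stood at -2.86 and -2.12, and Tsc22d3, a glucocorticoid-induced leucine zipper protein, at -2.87 and -2.17. Per1 was lower at D9 beside these genes, whereas Per2 did not pass, and whether the medium had a part in either was not tested.

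**Figure D4:**
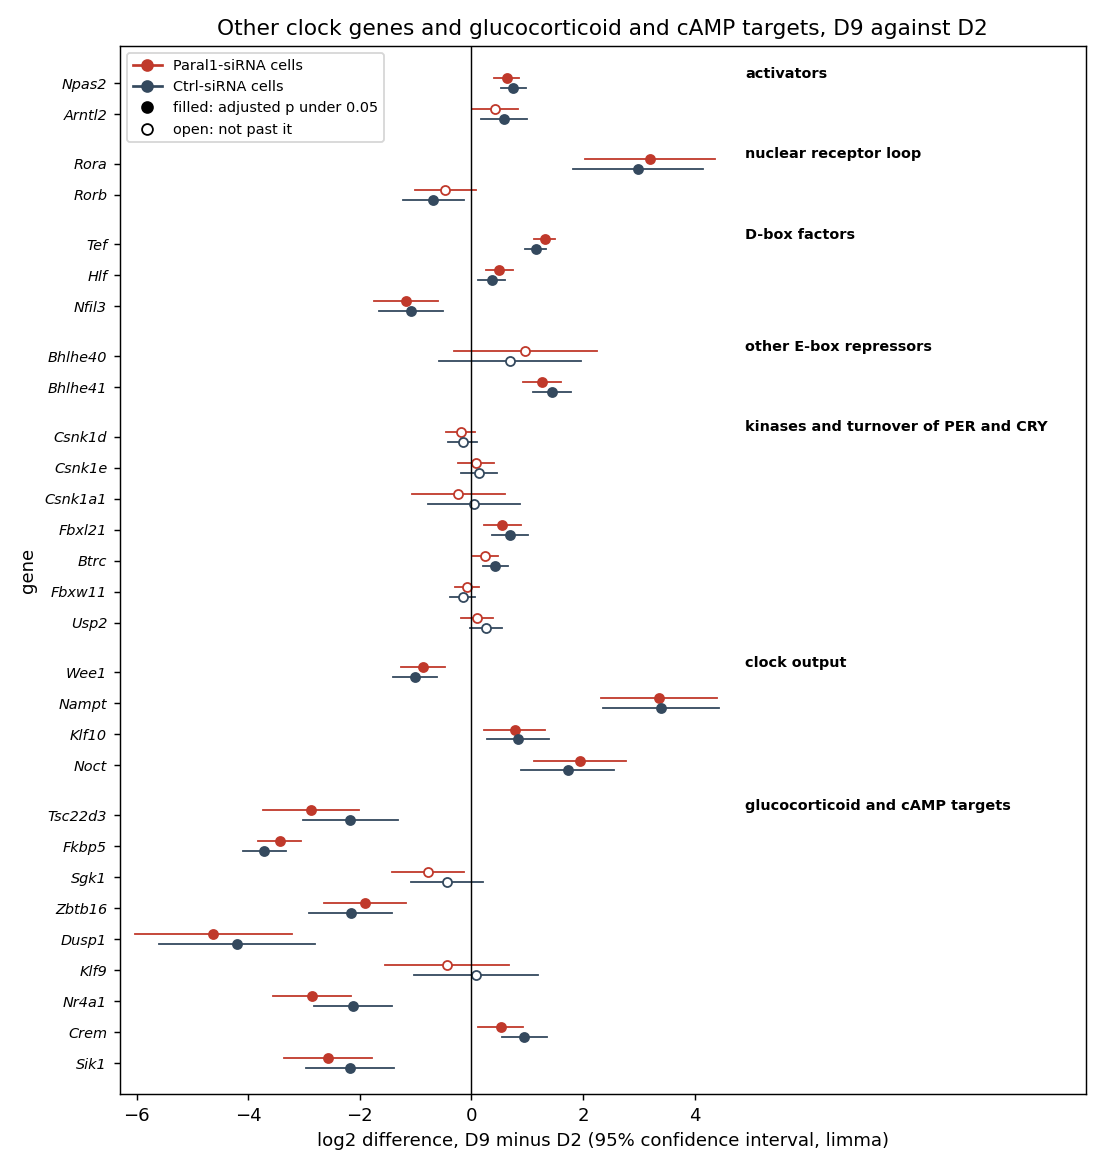
Log2 difference of D9 minus D2 (horizontal axis, 95% confidence interval of limma) for 20 further clock genes and 9 glucocorticoid and cAMP targets, grouped by role, in Paral1-siRNA cells (red) and Ctrl-siRNA cells (blue). Dusp1 lies furthest to the left at -4.62 and -4.20, and Nampt is at 3.36 and 3.40. Npas2, Hlf, Fbxl21 and Rorb are below background on all arrays, and the points of Rora and Nfil3 rest on groups in which only 1 or 2 of 3 arrays are above it.

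The genes whose levels ran most like those of Nr1d1, Dbp and Arntl were found by the root-mean-square distance over the 12 arrays, after each gene was centred on its own mean, among 8828 annotated genes with a mean above background. For Nr1d1 they were Nrbf2 (0.22 log2 units), Angptl6 (0.25) and Lsm14a (0.26). For Dbp they were Ube2l6 (0.19), Mcee (0.23) and Trim21 (0.23), and for Arntl they were Heatr6 (0.096), Asb7 (0.11) and Sec22a (0.13). The brightest background probe set had a mean of 6.23 over the 12 arrays. At D2, Angptl6 (5.55 in Paral1-siRNA and 5.50 in Ctrl-siRNA cells), Ube2l6 (5.98 and 5.75) and Trim21 (5.74 and 5.45) had means below it. Asb7 was close to it, with group means of 6.05 to 6.41. The distances of these genes rest in part on readings at background. Of the 10 members, the nearest to Nr1d1 was Per3, at rank 382 (0.49), and Per3 was also the nearest member to Dbp, at rank 141 (0.45), so many genes outside the clock followed these 2 more closely than any other member did. For Arntl the nearest member was Cry1, at rank 1883. The 12 points share 2 days and 6 experiments, and the distances describe these arrays only.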

How the data were processed

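The authors hybridised total RNA of 12 cultures to Affymetrix Mouse Transcriptome Array 1.0 arrays, 3 in each of 4 groups, and deposited log2 expression values after GCCN and SST correction and RMA normalization (Affymetrix Expression Console 1.4.1, per the submitters' notes; the paper's methods name another program for RMA). No source used here names the genome build of the array annotation. Precision is limited by the number of arrays. Of 72688 probe sets, 30638 had 1 symbol and 2176 had several; the brightest probe set over 12 arrays was kept for each of 30176 genes (354 had more than 1). The members and lists were chosen with earlier results of these data known. All 10 members are named, and of each further list at most 4 genes with the largest difference. The targeted transcript itself is not analysed here.

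Groups were compared with limma 3.58.1 (R 4.3.3; R package data.table, version 1.17.8; tested on simulated data), per day for the siRNAs and over all 12 arrays for the days and for the change of the siRNA difference, with Benjamini-Hochberg adjustment over all genes and a threshold of 0.05. Experiment numbers come from the labels, and the 2 arrays of an experiment deviated together (r of 0.72 to 0.87 at D2 and 0.73 to 0.85 at D9, against -0.80 to 0.42 and -0.54 to -0.21 between experiments), so the numbers pair the arrays. Background was the brightest of 23 background probe sets on each array. Alternatives were the experiment as a block, 1 fit for all arrays, the methods' t-test, a second quantile normalization, subtraction of array medians, a filter on dim probe sets, every probe set by itself, a trended robust prior, array weights and each array or experiment left out.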

Additional observations from a re-analysis of the deposited data

How the results depend on the processing

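Under the alternatives tried, the counts of clock genes past the threshold stayed at 0 for the siRNA at D9 and at D2 and for the change between the days, with the experiment as a replicate block too, which changed no call of a clock gene member; of the further genes, it changed that of Sgk1 alone. The count was 7 under every alternative in Ctrl-siRNA cells, and 6 to 7 in Paral1-siRNA cells. There Cry1 fell short (adjusted p of 0.067 to 0.099, limma) when the Paral1-siRNA array, or both arrays, of experiment 2, 3, 5 or 6 were left out, while Per2 passed without the Paral1-siRNA array of experiment 2 (-0.64, adjusted p = 0.0402). Of 350 repeats of called values none changed sign, and 107 of 840 repeats of uncalled values did. Subtracting array medians gave Arntl 0.06 in Paral1-siRNA cells and 0.09 in Ctrl-siRNA cells between D9 and D2, and a second quantile normalization gave -0.29 and -0.30, neither past the threshold. Background limited Per3 at D2 to a bound.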
